A study of Arabidopsis thaliana with 12 samples.

Results

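Salt changed the transcript levels of some Arabidopsis genes by a different amount, or in a different direction, in seedlings of the proatcape1 line than in wild-type seedlings. These genes were found from the interaction of genotype and salt, that is, the salt effect in proatcape1 minus the salt effect in the wild type, in a fit over all 12 arrays of the series. A gene passed when its interaction was over 1.5-fold at a limma adjusted p of at most 0.05. Of 19027 genes tested, 487 (2.56%) passed, 241 (1.27%) with a higher interaction and 246 (1.29%) with a lower one. A higher interaction means that the salt effect in proatcape1 lay above that in the wild type, whether the gene rose more, fell less or turned from a fall to a rise, and a lower interaction means the reverse.

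Whole 10-day-old seedlings were measured in 4 groups of 3 biological repeats. Wild-type plants of the strain Landsberg erecta (Ler) and plants of proatcape1, a line of the same strain with a T-DNA insertion in PROAtCAPE1 (AT4G33730), were each taken at 0 h in control medium or after 12 h in medium with 125 mM NaCl. The controls were taken at 0 h, so salt and the hours that passed cannot be told apart within a genotype, and a difference between salt effects is also a difference between the changes over those hours. proatcape1 is 1 insertion line, so the insertion and other differences of that line from the wild type cannot be told apart. Single colour Agilent arrays of 43803 spots were used, so the precision is set by how many arrays there are. Between 71.6 and 78.6% of the spots were well above background on an array, and no spot was saturated.

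PROAtCAPE1 encodes a precursor of the CAPE peptide family, which is cut from the end of secreted proteins related to pathogenesis-related protein 1. Seedlings meet high salinity with abscisic acid (ABA) signalling, ion and osmolyte adjustment and reduced growth, and many of the transcription factors involved also act in defence against pathogens. Levels are given as the log2 processed signal minus the array's own 75th percentile, so that 0 is the signal of a probe brighter than 75% of the others and a difference of 1 is a 2-fold change. Effects and interactions are differences on this log2 scale and are followed by their standard error (SE) where it is given. Levels of different genes are not compared, because each gene is read by its own probe.

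The targeted gene was read first. PROAtCAPE1 stood at log2 levels of -1.86, -1.45 and -1.80 in the 3 wild-type control arrays and at -5.32, -5.63 and -5.48 in the 3 wild-type salt arrays. In proatcape1 it stood at -8.64, -9.09 and -9.25 in control and at -9.06, -8.17 and -9.23 under salt, not well above background in either group. The level in the wild type was at least 34.8-fold higher in control and at least 2.31-fold higher under salt. These bounds set the wild-type mean against the mean, over the dim arrays, of the higher of the probe's own signal and the lowest signal read above background. Its interaction of 3.94 therefore sets the fall in the wild type against proatcape1 arrays near background, and it is not read as a salt response of proatcape1.

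Over all 19027 genes the median interaction was -0.02, and the 5th and 95th percentiles were -0.44 and 0.47. For most genes the difference between the 2 salt effects was therefore small. These include genes whose salt effect passed in neither genotype. The 2 directions differed in size. The 241 higher interactions had a median of 0.95, and 109 of them were over 2-fold and 26 over 4-fold. The 246 lower interactions had a median of -0.68, with 18 over 2-fold and 3 over 4-fold. At an unadjusted p below 0.05 and any size, 2127 genes had a higher and 3058 a lower interaction.

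**Figure D1:**
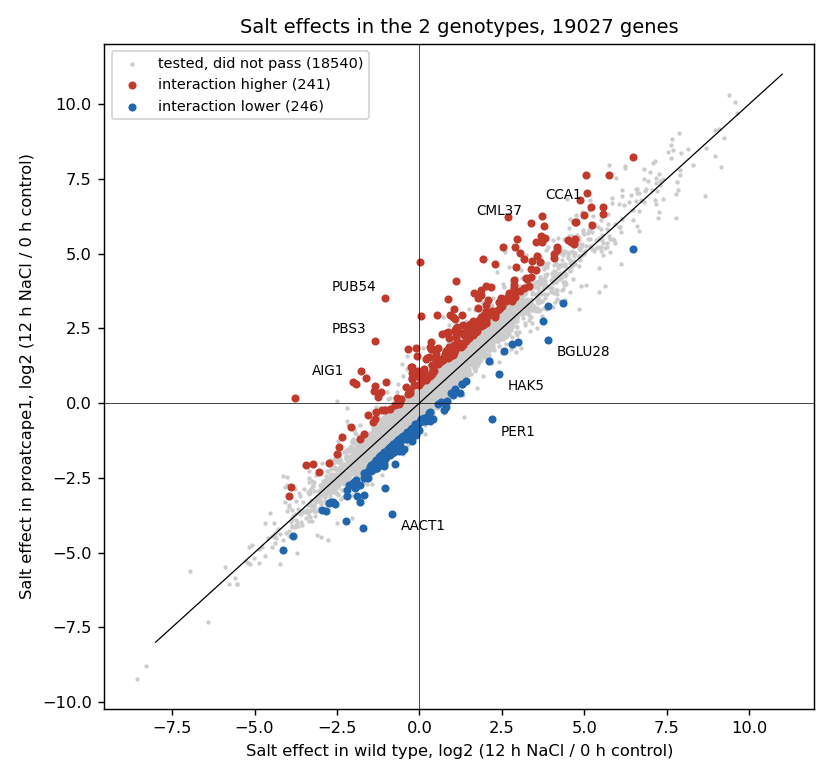
Salt effect in proatcape1 (vertical axis, log2) against salt effect in the wild type (horizontal axis, log2) for the genes tested, 1 point a gene. The 241 genes with a higher interaction lie above the line of equal effects and the 246 with a lower interaction lie below it, as the rule sets.

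Most of the passing genes moved in the same direction in both genotypes and moved further in proatcape1. Among the 241 genes with a higher interaction, 158 rose under salt in both genotypes, 44 passed as risen in proatcape1 and did not pass in the wild type, 15 fell in the wild type and did not pass in proatcape1, 13 fell in both and fell less in proatcape1, 5 fell in the wild type and rose in proatcape1, and 6 passed in neither. Among the 246 genes with a lower interaction, 174 fell in both genotypes, 40 passed as fallen in proatcape1 and did not pass in the wild type, 10 rose in the wild type and did not pass in proatcape1, 13 rose in both and 9 passed in neither. Over all genes tested, 17.5% rose and 21.8% fell under salt in the wild type (39.3% in all), and 19.6% rose and 26.2% fell in proatcape1 (45.8% in all). By sign and size alone, the salt effect of 78.4% of the higher and 85.0% of the lower genes had the same sign in both genotypes and was larger in proatcape1, beside 64.85% of all genes tested. The median salt effect of the higher genes was 1.09 in the wild type and 2.33 in proatcape1, and that of the lower genes was -0.80 and -1.49. These effects make up the interaction, so they describe the passing genes and were not tested again.

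Genotype differences in control and under salt were read for the passing genes. In control seedlings 101 of the 241 higher genes were lower in proatcape1 than in the wild type, 3 were higher and 137 did not pass, beside 1.15% lower and 0.972% higher over all genes tested (2.12% in either direction). Under salt 76 of the 241 were higher in proatcape1, 3 were lower and 162 did not pass, beside 2.72% higher and 1.92% lower over all genes (4.64% in either direction). For 84 genes the control level was lower in proatcape1 and the salt level did not pass, for 59 the reverse held, with a higher level under salt and none passed in control, and 14 passed in both conditions with opposite signs. The median genotype difference of the higher genes was -0.56 in control and 0.43 under salt. Of the 246 lower genes, 157 were lower in proatcape1 under salt and 15 were higher in proatcape1 in control, while the median genotype difference was 0.05 in control and -0.64 under salt. The genotype difference was larger in control for 62.7% of the higher genes, for 10.98% of the lower genes and for 32.7% of all genes tested. The share of the higher genes was 43.5% without replicate 1 of the wild-type salt group and 42.4% without the 1.5-fold limit, so it depended on that array and on that limit.

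**Figure D2:**
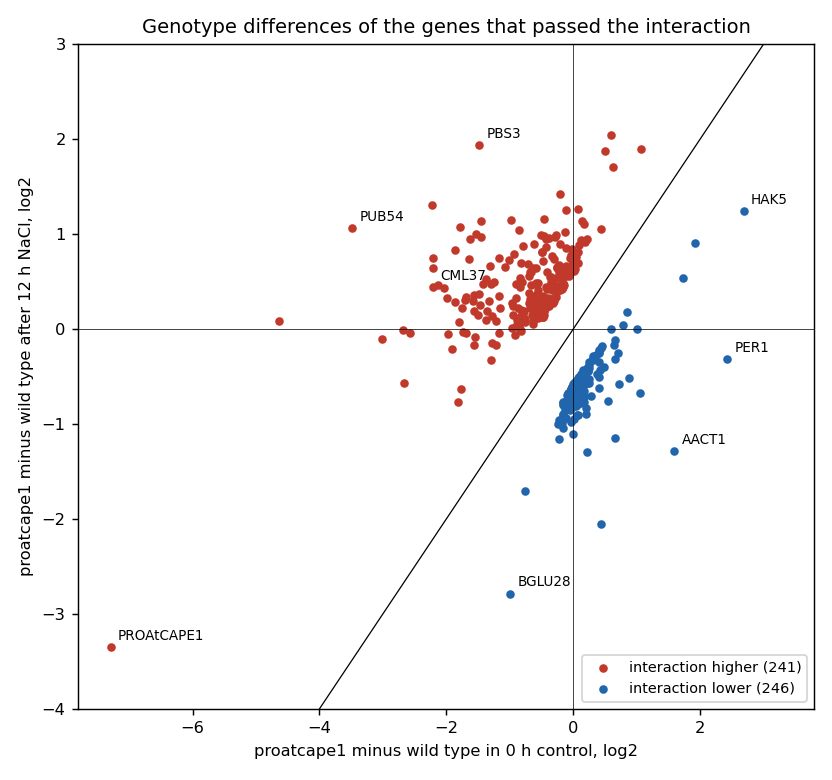
Difference between proatcape1 and the wild type under salt (vertical axis, log2) against the same difference in control (horizontal axis, log2), 1 point a gene. The genes with a higher interaction spread to the left of 0, with a median of -0.56 in control and 0.43 under salt, and those with a lower interaction spread below 0, with medians of 0.05 and -0.64.

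The number of passing genes depended strongly on single arrays. Each of the 3 slides carried 1 array of each group, so an interaction can be read on every slide. All 241 higher and all 246 lower genes had their sign on each of the 3 slides, with medians of 0.88, 0.92 and 1.13 for the higher and -0.61, -0.71 and -0.77 for the lower genes, a pattern that the test itself favours. Without replicate 1 of the wild-type salt group 811 genes passed, 398 of them higher. Without replicate 2 or 3 of that group 230 and 243 passed, without replicate 1 or 3 of the proatcape1 control 285 and 215 passed, and without replicate 1 of the proatcape1 salt group 217 passed. Without replicate 3 of the wild-type control 142 genes were higher, and without replicate 2 of the proatcape1 salt group 151 were. With the slide as a block, 501 genes passed and 439 of them were among the 487. Among the named genes, the block put the adjusted p of ALDH7B4, BAM3, HAK5, NHL25, PDF1.4, SKOR, UGT73C6 and WRKY25 above 0.05, between 0.0507 and 0.0652. It let the phosphatase HAI2 (-0.76), the jasmonate repressor JAZ8 (-1.68), the light-harvesting protein LHCB2.1 (0.62), the galactolipid synthase MGD3 (0.66), the MYB factor MYB41 (-0.68) and the ABA-responsive RD29B (0.80) pass, with adjusted p-values between 0.0180 and 0.0458. With slides 1 and 2 alone, which were scanned together, 19 genes passed, and 17 of these were among the 487. Of the genes whose levels are given array by array below, AACT1, AT1G44130, CCA1, CHR38, CML37, PBS3, PORA, SARD1 and ZAT7 passed without each of the 12 arrays in turn, PUB54 passed 9 times, PER1 4 times, HAK5 3 times and BGLU28 2 times. Among the other named genes, ALDH7B4, F3'H and PLT1 passed 1 time of 12, AT4G22214, NAC042, PDF1.4, SKOR, UGT73C6 and WRKY25 passed 2 times, and BAM3, CML38, CYP706A6, ELI3-2, EXPA10, LHY, NHL25 and XTH9 passed 3 times.

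Genes of salicylic acid and immune signalling were among the largest higher interactions. Salicylic acid is the hormone of defence against biotrophic pathogens. Of 23 tested genes of its synthesis, signalling and response 3 were higher and 0 lower, beside 1.27% and 1.29% over all genes tested. The list median was 0.35 against -0.02 over all genes. This list, like the others, was chosen with earlier results of these data known. The 3 were PBS3 (AT5G13320), an enzyme of salicylic acid synthesis, and SARD1 (AT1G73805) and CBP60g (AT5G26920), related transcription factors that switch on that synthesis. FMO1, which makes the immune signal N-hydroxypipecolic acid (1.73, adjusted p = 0.0645), and NIMIN1, a partner of the receptor NPR1 (1.09, adjusted p = 0.122), did not pass. Without replicate 1 of the wild-type control 7 members of the list were higher, and without any other single array 3 or 4 were.

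PBS3 stood at log2 levels of -3.61, -2.24 and -1.52 in the wild-type control and at -3.30, -4.21 and -3.87 in the wild type under salt. In proatcape1 it stood at -4.03, -3.74 and -4.06 in control and at -1.61, -2.17 and -1.79 under salt. The proatcape1 salt arrays lay above all arrays of the wild type under salt and above all proatcape1 control arrays, whereas the wild-type control arrays spread widely and overlapped both wild-type salt and proatcape1 salt. The salt effect was a fall of -1.34 in the wild type and a rise of 2.09 in proatcape1, an interaction of 3.42 (SE 0.61, limma adjusted p = 0.0159).

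SARD1 stood at -3.84, -2.96 and -2.95 in the wild-type control and at -3.50, -3.27 and -4.01 in the wild type under salt. The corresponding proatcape1 levels were -4.27, -4.13 and -4.32 in control and -2.54, -2.39 and -2.40 under salt. The wild-type groups overlapped each other, while the proatcape1 control arrays lay below all others and the proatcape1 salt arrays above all others. The interaction was 2.14 (SE 0.33, adjusted p = 0.0120), and CBP60g had the same pattern with 1.72 (SE 0.33, adjusted p = 0.0199), with a genotype difference of -0.93 in control and 0.79 under salt.

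PUB54 (AT1G01680), a U-box protein of the ubiquitin ligase type, had the largest interaction among the passing genes that carried a symbol and were read in all groups, at 4.55 (SE 0.90, adjusted p = 0.0210). Its levels were -3.83, -2.53 and -0.90 in the wild-type control, -2.76, -3.50 and -4.12 in the wild type under salt, -6.70, -5.74 and -5.29 in the proatcape1 control and -2.15, -2.58 and -2.47 in proatcape1 under salt. The wild-type arrays of both conditions overlapped and their control arrays spread widely, and the proatcape1 control arrays lay below every other array. AIG1 (AT1G33960), a GTP-binding protein known from the response to an avirulent bacterium, fell by 2.00 under salt in the wild type and had a proatcape1 effect of 0.69 that did not pass, with an interaction of 2.70 (SE 0.55, adjusted p = 0.0227). The immune kinase MPK11 rose by 0.92 in the wild type and by 2.94 in proatcape1 (interaction 2.02, SE 0.35, adjusted p = 0.0147). It was the 1 member of 16 genes of pattern-triggered immunity to pass, beside 2.56% passing over all genes tested. The list median was 0.07, and FRK1, a receptor kinase used as a marker of that response, had an interaction of 1.77 that did not pass (adjusted p = 0.0643). XBAT34 (AT4G14365), a RING protein with ankyrin repeats, had a salt effect of -0.12 in the wild type, which did not pass, and of 1.85 in proatcape1 (interaction 1.97, SE 0.27, adjusted p = 0.00784).

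The calcium sensor CML37 and the zinc finger factor ZAT7 rose further in proatcape1 from a lower control level. CML37 (AT5G42380), a calmodulin-like calcium sensor, stood at -1.40, -2.10 and -1.04 in the wild-type control and at -3.86, -3.68 and -3.64 in the proatcape1 control, with no overlap. Under salt it stood at 2.09, 2.17 and 1.33 in the wild type and at 2.22, 2.64 and 2.06 in proatcape1, where the groups overlapped. The salt effect was 3.37 in the wild type and 6.03 in proatcape1 (interaction 2.66, SE 0.40, adjusted p = 0.0109). CML38, a close relative of CML37, had an interaction of 1.3 (SE 0.32, adjusted p = 0.0394). So 2 of 7 tested calmodulin-like stress genes were higher and 0 lower, beside 1.27% and 1.29% over all genes tested.

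ZAT7 (AT3G46090), a zinc finger repressor induced by several stresses, showed the same arrangement of groups as CML37. Its levels were -1.20, -1.51 and -1.04 in the wild-type control, -0.07, -0.09 and -0.99 in the wild type under salt, -3.43, -3.32 and -3.40 in the proatcape1 control and 0.22, 0.21 and -0.19 in proatcape1 under salt. All proatcape1 control arrays lay below the wild-type control, and the genotype difference under salt (0.47, adjusted p = 0.13) did not pass. The interaction was 2.60 (SE 0.32, adjusted p = 0.00546), and the gene next to it, AT3G46080, had 2.31 (SE 0.38, adjusted p = 0.0132). AZF3 (0.61, SE 0.11) was the third of 17 ZAT, AZF and ERF stress factors to pass as higher, beside 1.27% over all genes tested. None was lower, and the list median was 0.48. ZAT10 (1.06, adjusted p = 0.0739) and ZAT12 (0.99, adjusted p = 0.0876), other members of this group, did not pass.

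All 22 tested WRKY factors of stress and defence had a positive interaction, with a median of 0.41 and a range from 0.13 to 1.54, beside 45.0% positive over all genes. Of these, 2 passed, beside 1.27% higher over all genes tested. They were WRKY46 (1.54, SE 0.34, adjusted p = 0.0276), a factor that responds to salicylic acid and osmotic stress, and WRKY25 (0.89, SE 0.23, adjusted p = 0.0457), a factor of the heat and salt response. Without replicate 2 of the wild-type control 3 WRKY genes passed, without replicate 1 of the wild-type salt group 2 did, and without any of the other 10 arrays 0 or 1 did. WRKY55 (1.495, adjusted p = 0.277) and WRKY30 (1.34, adjusted p = 0.166) had values of similar size and did not pass.

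Several enzymes of detoxification and a mitochondrial stress gene had higher interactions. ELI3-2, annotated as a cinnamyl alcohol dehydrogenase, rose by 2.55 in the wild type and by 5.22 in proatcape1 (interaction 2.67, SE 0.61, adjusted p = 0.0313). ChlAKR, an aldo-keto reductase of the chloroplast, rose by 3.79 and 5.94 (interaction 2.15, SE 0.49, adjusted p = 0.0311). BCS1 (AT3G50930), a protein of the outer mitochondrial membrane that marks mitochondrial stress signalling, rose by 3.06 and 5.02 (interaction 1.97, SE 0.29, adjusted p = 0.0110). In all 3 the level in control was lower in proatcape1, with differences of -2.69, -1.86 and -1.75 in this order, and the difference under salt did not pass. CYP81D8, a cytochrome P450 of the response to foreign compounds, was the 1 member of 16 genes for glutathione transferases and related detoxification to pass (1.88, SE 0.38, adjusted p = 0.0217), with a list median of 0.25. Over all genes tested 2.56% passed in either direction. The glycosyltransferase UGT73C6, which acts on flavonols, fell by 1.38 in the wild type and had an effect of 0.39 in proatcape1 that did not pass (interaction 1.77, SE 0.45, adjusted p = 0.0419). The remaining named gene of this size, BPS3, rose by 1.88 and 3.63 (interaction 1.75, SE 0.31, adjusted p = 0.0160).

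**Figure D3:**
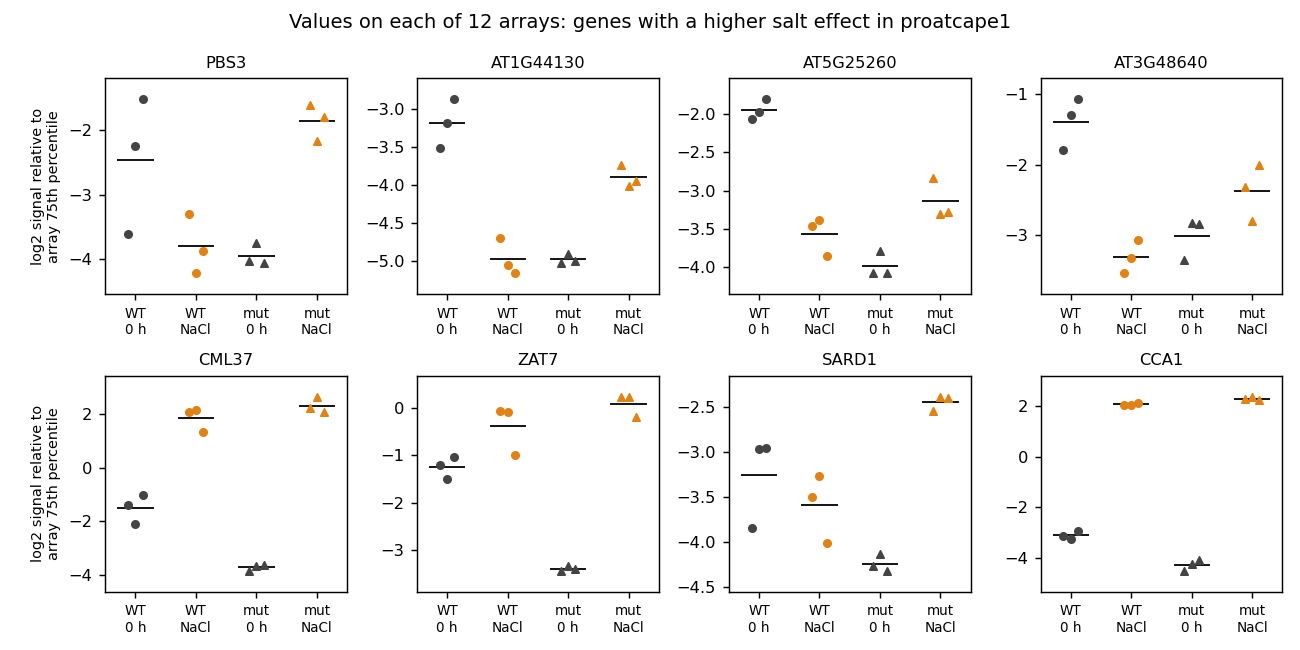
Log2 level relative to the array's 75th percentile (vertical axis) of 8 genes with a higher interaction on each of the 12 arrays, grouped by genotype and condition, with a bar at the mean of 3. In CML37, ZAT7, CCA1, PBS3 and SARD1 the proatcape1 control arrays lie below the wild-type control. The proatcape1 salt arrays lie above all others in SARD1 and CCA1, and in PBS3 they overlap the wild-type control.

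In 5 genes the salt effect passed in both genotypes with opposite signs and the interaction passed too, and all 5 fell in the wild type and rose in proatcape1. In AT5G64120 the salt effects also passed with opposite signs, at -0.65 and 0.65, and the interaction did not pass (1.3, adjusted p = 0.0519). PBS3 is described above, and the other 4 are known here only by their locus. AT1G44130 stood at -3.51, -3.19 and -2.88 in the wild-type control and -4.70, -5.06 and -5.17 in the wild type under salt. In proatcape1 it stood at -5.03, -4.91 and -5.01 in control and -3.74, -4.02 and -3.95 under salt. The proatcape1 control lay among the wild-type salt arrays and the proatcape1 salt arrays lay between the 2 wild-type groups, with effects of -1.78 and 1.08 and an interaction of 2.86 (SE 0.22, adjusted p = 0.000545).

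AT5G25260 had salt effects of -1.62 in the wild type and 0.84 in proatcape1 (interaction 2.46, SE 0.22, adjusted p = 0.000991). AT3G48640 had effects of -1.93 and 0.64 (interaction 2.57, SE 0.34, adjusted p = 0.00782), and AT2G20142 had effects of -1.0 and 0.71 (interaction 1.72, SE 0.28, adjusted p = 0.0126). In all 4 the control level was lower in proatcape1 than in the wild type, with differences of -1.79 for AT1G44130, -2.03 for AT5G25260, -1.62 for AT3G48640 and -1.47 for AT2G20142. When each of the 12 arrays was left out in turn, AT1G44130, AT5G25260 and AT2G20142 kept both opposite calls and the interaction each time, PBS3 kept them 10 times and AT3G48640 kept them 9 times. Among tested genes next to each other in locus order, 8 pairs were both higher and 6 pairs both lower, and whether a probe of one also read the other was not tested. AT5G25260 is next to FLOT1 (1.52), which encodes a flotillin of membrane microdomains, and AT3G46080 is next to ZAT7.

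Clock genes with a morning peak formed the list with the highest median. Arabidopsis keeps time through repressors such as CCA1 and LHY that accumulate around dawn and genes of the evening complex that accumulate around dusk. Of 11 morning clock genes tested, 5 were higher and 0 lower, beside 1.27% and 1.29% over all genes tested. All 11 values were positive (median 0.67), whereas 0 of 9 evening clock genes passed (median -0.06). CCA1 stood at -3.14, -3.25 and -2.94 in the wild-type control and at -4.51, -4.22 and -4.07 in the proatcape1 control. Under salt it stood at 2.05, 2.06 and 2.15 in the wild type and at 2.31, 2.37 and 2.25 in proatcape1. The genotypes did not overlap in either condition, but the difference of -1.16 in control was far larger than that of 0.22 under salt, which did not pass. The interaction was 1.38 (SE 0.15, adjusted p = 0.00406), on top of rises of 5.20 and 6.57 between 0 and 12 h. CCA1 has 3 probes on the array and they disagreed, with interactions of 1.38 for the brightest, which is the one used, and of 0.61 and -0.58 for the others, read above background on 6 and 10 of the 12 arrays. With the mean of all probes of a locus the interaction of CCA1 was 0.47 and did not pass (adjusted p = 0.204).

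LHY (0.97, SE 0.23, adjusted p = 0.0320), the partner of CCA1, and LNK2 (0.95, SE 0.11, adjusted p = 0.00490), a coactivator of the morning, followed the same order of groups, each lower in the proatcape1 control. RVE8 (0.77) and RVE1 (0.67), MYB factors related to CCA1, also passed. PRR9, a repressor of CCA1, had an interaction of 1.31 that did not pass (adjusted p = 0.0962), and LNK1 had one of 0.50 that was under 1.5-fold (adjusted p = 0.0227). Without replicate 2 of the wild-type salt group or replicate 3 of the proatcape1 control 2 morning genes passed, and without any other single array 3 or 5 did. The clock moves with the hour of harvest, and the hours of the 0 and 12 h samples cannot be told apart from salt.

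The hormone genes that passed in the higher direction included 2 of ABA turnover, 2 of ethylene precursor synthesis and the cytokinin regulator ARR5. Of 11 genes of ABA synthesis and catabolism tested, 2 were higher and 0 lower (median 0.56), beside 1.27% and 1.29% over all genes tested. CYP707A3, which breaks ABA down, rose by 1.8 in the wild type and by 2.77 in proatcape1 (interaction 0.97, SE 0.15, adjusted p = 0.0110), and AAO3, the oxidase of the last step of ABA synthesis, rose by 1.31 in proatcape1 beside an effect of 0.55 in the wild type (interaction 0.76, SE 0.17, adjusted p = 0.0268). Among ACC synthases, which make the precursor of ethylene, ACS11 (1.73, SE 0.43, adjusted p = 0.0381) and ACS7 (1.39, SE 0.25, adjusted p = 0.0165) passed out of 6 tested, and 0 of 3 ACC oxidases did. The list of ACC enzymes was drawn up after the passing genes had been seen, so its counts describe those genes and nothing is read from their number. Of 10 type-A response regulators of cytokinin signalling, ARR5 fell less in proatcape1 (-1.05) than in the wild type (-1.68), an interaction of 0.63 (SE 0.13), whereas ARR16 (-0.71, SE 0.15) and ARR17 (-0.68, SE 0.14) had lower interactions.

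Salt-inducible ABA-responsive genes mostly did not pass. A set of salt-inducible genes, among them ABA-responsive factors and enzymes, was also measured by qRT-PCR in the same work. Of its 8 members ALDH7B4, an aldehyde dehydrogenase, passed on the arrays, with rises of 2.80 and 3.41 (interaction 0.61, SE 0.16, adjusted p = 0.0485). With the slide as a block ALDH7B4 did not pass (adjusted p = 0.0618) and RD29B did (adjusted p = 0.0202). The interaction was 0.80 (SE 0.28, adjusted p = 0.0982) for RD29B, 0.63 (SE 0.21, adjusted p = 0.0898) for the proline synthesis enzyme P5CS1 and 0.42 (SE 0.16, adjusted p = 0.127) for the ABA-responsive factor AREB1. It was 0.28 for ABI5, 0.10 for RD22, 0.06 for RD20 and -0.08 for GolS2, with adjusted p-values between 0.366 and 0.941. These genes were picked for their salt response, and a p above the limit does not show that the genotypes responded alike. The qRT-PCR test set proatcape1 against the wild type under salt, which is a genotype difference and not the interaction. On the arrays the median genotype difference of the 8 genes was 0.33 in control and 0.72 under salt. ACTIN2, the reference gene of that assay, had no probe matched to its locus and was not analysed here.

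Transport and nutrient genes passed in both directions. NRT1.8, which takes nitrate back from the xylem, rose by 1.1 in the wild type and by 2.50 in proatcape1 (interaction 1.4, SE 0.26, adjusted p = 0.0178). SKOR, a channel that releases potassium into the xylem, fell by 1.35 in the wild type and had an effect of -0.52 in proatcape1 (interaction 0.83, SE 0.21, adjusted p = 0.0421). The high-affinity potassium transporter HAK5 moved the other way. It stood at -3.15, -3.05 and -2.24 in the wild-type control, -0.21, -0.51 and -0.47 in the wild type under salt, 0.05, 0.17 and -0.61 in the proatcape1 control and 0.80, 0.74 and 0.99 in proatcape1 under salt. The proatcape1 control arrays overlapped the wild-type salt arrays, so HAK5 was already high in proatcape1 before salt, by 2.68, and rose by 0.97 there beside 2.41 in the wild type. Its interaction was -1.44 (SE 0.35, adjusted p = 0.0364), but it was -2.19 and -1.97 on slides 1 and 2 and -0.17 on slide 3, and with the slide as a block HAK5 did not pass (adjusted p = 0.0552). SKOR and HAK5 were the 2 passing members of 16 genes of sodium, potassium and proton transport, whose median was -0.04. Over all genes tested 2.56% passed in either direction.

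Genes of senescence were higher in 2 of 11 tested (median 0.44), beside 1.27% over all genes tested. NYE2, listed here with genes of chlorophyll breakdown, stood at -3.58, -3.29 and -3.25 in the wild-type control and at -3.38, -3.32 and -3.77 in the proatcape1 control, where the groups overlapped. Under salt it stood at -0.86, -1.71 and -1.33 in the wild type and at 0.08, -0.06 and -0.17 in proatcape1, without overlap. Its interaction was 1.36 (SE 0.27, adjusted p = 0.0220) and, unlike those of CML37 and ZAT7, came from the salt arrays. SAG21, a LEA-type protein of early senescence and oxidative stress, had 0.83 (SE 0.13, adjusted p = 0.0126), while SEN1 (-1.04, adjusted p = 0.268) and SAG29 (0.93, adjusted p = 0.13) did not pass. The flavonoid hydroxylase F3'H (0.60, SE 0.16, adjusted p = 0.0441) was the 1 passing gene of 17 for flavonoids and anthocyanins, with a list median of 0.04. Over all genes tested 2.56% passed in either direction.

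The largest lower interactions belonged to genes of unlike function. AACT1 (AT5G61160) carries the name of an anthocyanin acyltransferase, and its enzyme activity was not measured. It stood at -3.25, -3.68 and -3.64 in the wild-type control and at -2.44, -0.89 and -2.47 in the proatcape1 control. Under salt it stood at -4.37, -4.30 and -4.40 in the wild type and at -5.47, -5.84 and -5.62 in proatcape1. No 2 groups overlapped, proatcape1 being higher in control and lower under salt, with salt effects of -0.83 and -3.71 and an interaction of -2.88 (SE 0.48, adjusted p = 0.0140). AACT1 is the 1 gene of the 246 that passed as higher in the control and lower under salt.

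PER1 (AT1G48130), a peroxiredoxin best known from seeds, was at -6.01, -6.59 and -5.62 in the wild-type control and at -4.49, -3.22 and -3.91 in the wild type under salt. In proatcape1 it was at -2.62, -4.23 and -4.09 in control and at -4.01, -4.28 and -4.29 under salt. The wild-type control arrays lay below all others, and the other 3 groups overlapped. It rose by 2.2 in the wild type and had an effect of -0.55 in proatcape1 that did not pass (interaction -2.75, SE 0.61, adjusted p = 0.0287). The summed level of 8 seed storage and oil body markers, none of which was tested, was also lowest in the wild-type control, at 0.0357 to 0.0734 times the 75th percentile signal. It was 0.091 to 0.556 times in the wild type under salt, 0.0884 to 0.996 times in the proatcape1 control and 0.107 to 0.326 times in proatcape1 under salt. Of these markers 3, 7, 6 and 5 were above background on any array of the 4 groups in this order, At2S1 was above it on none, and their part in the PER1 result was not tested. E12A11, the gene also called MOTHER OF FT AND TFL1, which acts in seed germination, was higher in proatcape1 in both conditions, by 1.91 in control and 0.90 under salt, and rose by 4.35 in the wild type and by 3.34 in proatcape1 (interaction -1.01, SE 0.22, adjusted p = 0.0276).

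BGLU28 (AT2G44460), a beta-glucosidase induced when sulfur is scarce, stood at -4.22, -4.48 and -4.31 in the wild-type control and at -1.21, -0.38 and 0.26 in the wild type under salt. In proatcape1 it stood at -5.48, -5.41 and -5.12 in control and at -3.69, -3.05 and -2.94 under salt. The proatcape1 arrays lay below those of the wild type in both conditions, without overlap, and further below under salt. It rose by 3.90 and 2.11 (interaction -1.79, SE 0.44, adjusted p = 0.0387) and was the 1 passing gene of 12 for sulfur limitation, whose median was -0.37. Over all genes tested 2.56% passed in either direction. NAC042 (AT2G43000), a NAC factor that delays senescence, was higher in proatcape1 by 1.01 in control, and the difference under salt did not pass (interaction -1.01, SE 0.27, adjusted p = 0.0471).

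PORA (AT5G54190), which reduces protochlorophyllide in the light, differed little in control and clearly under salt. Its levels were -1.43, -1.27 and -1.35 in the wild-type control and -1.13, -1.17 and -1.11 in the proatcape1 control. Under salt they were -3.22, -3.15 and -3.12 in the wild type and -4.09, -4.59 and -4.69 in proatcape1. It fell by 1.81 and 3.32 (interaction -1.51, SE 0.17, adjusted p = 0.00482), and its relative PORB fell by 2.82 and 3.62 (interaction -0.80, SE 0.11, adjusted p = 0.00784). PORA and PORB were the 2 lower members of 11 genes of chlorophyll synthesis, beside 1.29% lower over all genes tested. None was higher, and the list median was 0.00.

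CHR38 (AT3G42670), also called CLASSY1, a chromatin remodeller of RNA-directed DNA methylation, had the lowest adjusted p of the named genes. It stood at -1.29, -1.16 and -1.12 in the wild-type control and at -0.36, -0.21 and -0.36 in the proatcape1 control, then at -2.85, -2.78 and -2.93 in the wild type and at -3.45, -3.29 and -3.37 in proatcape1 under salt. No groups overlapped, and the genotype difference changed sign, from 0.88 in control to -0.51 under salt, the latter under 1.5-fold. The interaction was -1.39 (SE 0.09, adjusted p = 0.000236).

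The other named lower genes fell further in proatcape1 or differed under salt. The chloroplast RNA-binding protein CP29 fell by 1.8 and 2.74 (interaction -0.95, SE 0.15, adjusted p = 0.0126), and CS26, a plastid cysteine synthase, fell by 1.56 and 2.50 (interaction -0.94, SE 0.17, adjusted p = 0.0162). The wall enzyme XTH16 had an interaction of -1.1 (SE 0.23, adjusted p = 0.0252), the cytochrome P450 CYP706A6 one of -0.98, the transporter-family gene UMAMIT32 one of -0.97, TRM25 one of -0.96 and the calmodulin-binding family gene IQD22 one of -0.95. Of 16 expansins and XTH enzymes, which loosen and remodel the cell wall, 2 were lower and 0 higher (median 0.01), beside 1.29% and 1.27% over all genes tested. These 2 were XTH9 (-0.85, SE 0.22), which fell by 1.32 and 2.17, and EXPA10 (-0.85, SE 0.20), which rose by 2.82 and 1.97. The plant defensin PDF1.4 had an interaction of -0.94 (SE 0.24, adjusted p = 0.0447) and was the 1 passing gene of 12 for defensins and ethylene defence. Of 12 starch breakdown genes 2 were lower, the beta-amylase BAM3 (-0.62, SE 0.16) and the alpha-amylase AMY3 (-0.60, SE 0.06), beside 1.29% over all genes tested. The list median was -0.37, and 10 of 12 values were negative.

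**Figure D4:**
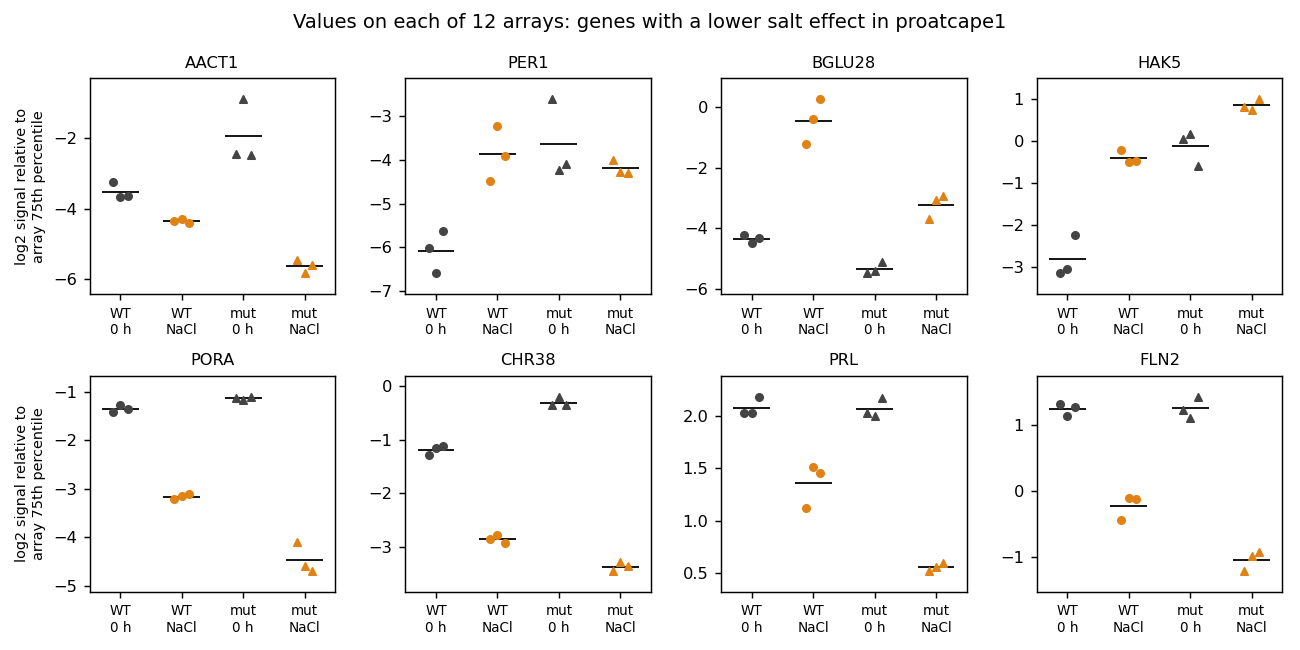
Log2 level relative to the array's 75th percentile (vertical axis) of 8 genes with a lower interaction on each of the 12 arrays, grouped by genotype and condition, with a bar at the mean of 3. PORA, PRL and FLN2 are close between genotypes in control and lower in proatcape1 under salt, HAK5 is high in proatcape1 before salt, and AACT1 and CHR38 change the sign of the genotype difference.

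Besides these single genes, lists of growth and plastid genes were read, whose median salt effect was negative in both genotypes and more so in proatcape1. The replication, plastid, chaperonin and methylation lists below were drawn up after the passing genes had been seen, so their counts and medians describe which genes passed and nothing is read from them about the lists. Of 46 tested genes for DNA replication and the supply of deoxynucleotides, 22 had a lower and 0 a higher interaction, and 45 of 46 values were negative. The median interaction was -0.56, the median salt effect -0.73 in the wild type and -1.30 in proatcape1, and the median genotype difference 0.00 in control and -0.55 under salt. Without replicate 2 of the wild-type salt group 11 of them passed, without replicate 3 of the proatcape1 control 12, without replicate 1 of the proatcape1 salt group 14, and without any other single array 15 to 25, and with slides 1 and 2 alone 0 passed at a median of -0.52.

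The 22 genes are given here by step, in groups that were also set after the passing genes had been seen. The helicase and its loading partners gave 9 of 13, among them MCM2, MCM3, MCM4, MCM5 and MCM6 (-0.59 to -0.71), PRL, the MCM7 subunit (-0.79), CDC45 (-0.70), PSF2 and ETG1. The polymerases, clamp and ligase gave 5 of 12, with the sliding clamps PCNA1 (-0.75) and PCNA2 (-0.73). Single-strand binding proteins gave 4 of 8, with RPA70B at -0.82, and nucleotide supply gave 3 of 4, with the ribonucleotide reductase subunits RNR1 (-0.77) and TSO2 (-0.64) and with DUT1 (-0.71). Initiation gave 1 of 9, the loading factor CDC6 (-0.73).

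PRL stood at 2.03, 2.03 and 2.18 in the wild-type control and at 2.03, 2.00 and 2.17 in the proatcape1 control. Under salt it stood at 1.12, 1.51 and 1.46 in the wild type and at 0.52, 0.56 and 0.59 in proatcape1, so the genotypes overlapped in control and were apart under salt (SE 0.13, adjusted p = 0.0140). RNR1 was at 1.98, 1.88 and 1.95 and at 1.86, 1.85 and 1.98 in the 2 control groups, and under salt at 0.85, 1.24 and 1.21 in the wild type and at 0.21, 0.37 and 0.29 in proatcape1. In both genes replicate 1 was the lowest of the wild-type salt arrays, and the number of passing genes rose to 811 without it.

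Mitotic genes leaned the same way without passing. All 16 tested had a negative interaction, beside 55.0% of all genes, with a median of -0.36 and a range from -0.58 to -0.22, and 0 passed. CYCB1;1 (-0.58, SE 0.07, adjusted p = 0.00415), CYCA2;3 (-0.58, SE 0.13, adjusted p = 0.0321) and CYCA1;1 (-0.42, SE 0.10, adjusted p = 0.0376), cyclins of the mitotic cycle, were within the adjusted p limit and under 1.5-fold. Of 16 genes that maintain or target DNA methylation, 5 were lower and 0 higher, with a median of -0.45. Besides CHR38 these were MET1 (-0.74), which copies methylation to new DNA, VIM1 (-0.70) and VIM5 (-0.73), cofactors of MET1, and the chromatin remodeller CHR1 (-0.59), also called DDM1. VIM1 and VIM5 are neighbours and close relatives, and reads of one by the probe of the other were not tested.

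Plastid gene expression was read from another list drawn up after the passing genes had been seen. The plastid-encoded RNA polymerase transcribes photosynthesis genes of the chloroplast with the help of associated proteins made in the nucleus, and a second, nuclear-encoded polymerase, SCA3 in this list, reads housekeeping genes. Of 21 genes, 7 were lower and 1 higher, with a median of -0.54. Of the 7, FLN1 (-0.77), PDE312 (-0.69), PTAC12 (-0.60) and FSD2 (-0.63) were listed as proteins associated with the polymerase. The others were FLN2 (-0.83), PRIN2 (-0.80) and SCA3 (-0.74). FLN2 stood at 1.32, 1.13 and 1.26 in the wild-type control and 1.23, 1.1 and 1.42 in the proatcape1 control, then at -0.44, -0.11 and -0.12 in the wild type and -1.21, -0.99 and -0.92 in proatcape1 under salt. The genotypes overlapped in control and were apart under salt (SE 0.16, adjusted p = 0.0198). Of the 6 sigma factors, which direct this polymerase to promoters, SIGE was higher (0.69), with rises of 3.17 and 3.85, and 0 were lower. Without replicate 3 of the wild-type salt group or of the proatcape1 control, or without replicate 1 of the proatcape1 salt group, 2 genes of the plastid list were lower, without replicate 2 of the wild-type salt group 3 were, and without replicate 1 of that group 12 were.

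Plastid chaperonins, which fold newly imported proteins, were lower for 3 of 8 genes, CPN60A (-0.72), CPN60B (-0.64) and Cpn60beta2 (-0.76), with a median of -0.53. Without replicate 3 of the proatcape1 control or replicate 1 of the proatcape1 salt group 0 passed, without replicate 2 or 3 of the wild-type salt group 1 did, and without any other single array 2 to 4 did. FSD2, a superoxide dismutase of the chloroplast, was also the 1 passing gene of 12 for catalases, peroxidases and superoxide dismutases, and its partner FSD3 was at -0.58 (adjusted p = 0.0247), under 1.5-fold. Of 22 light-harvesting and Rubisco small subunit genes 0 passed, and all 22 values were positive with a median of 0.15. They are not compared with the plastid lists, because those were drawn up from genes seen to pass.

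**Figure D5:**
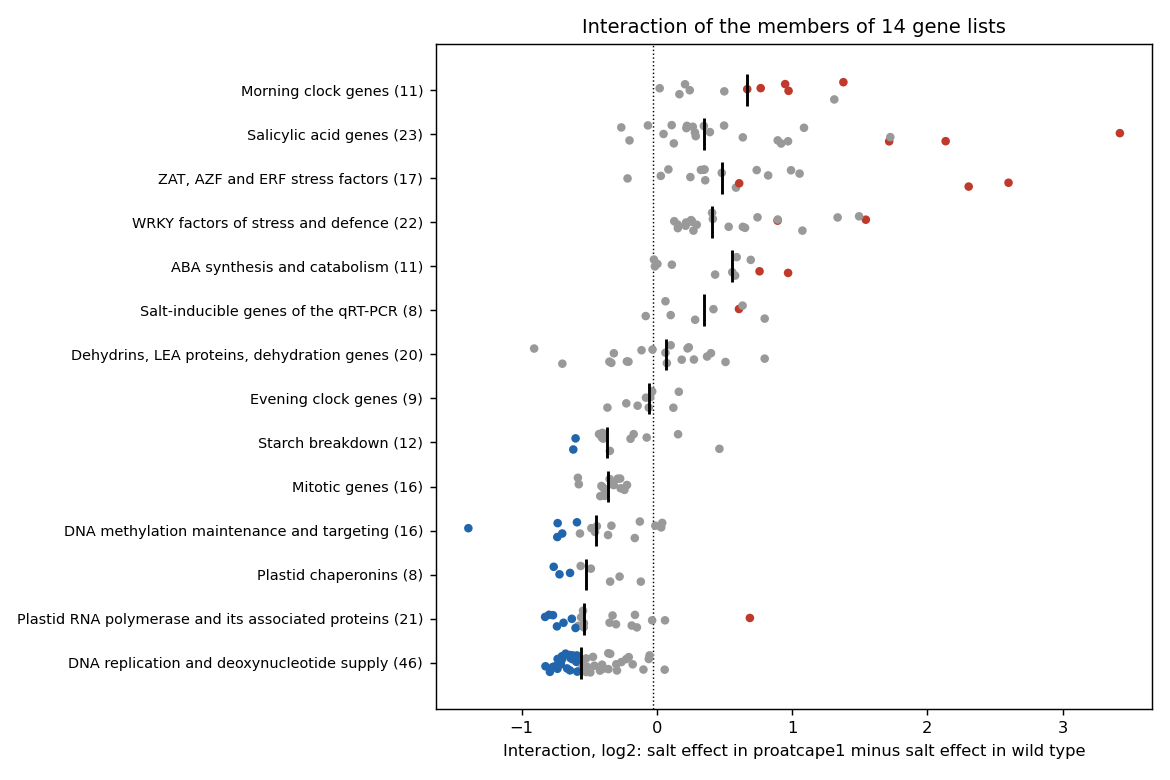
Interaction (horizontal axis, log2) of the tested members of 14 gene lists, 1 point a gene, with a bar at the list median and a dotted line at the median over all genes (-0.02). Red points passed with a higher interaction, blue points with a lower one and grey points did not pass. The medians run from 0.67 for morning clock genes to -0.56 for DNA replication. The lists for DNA replication, DNA methylation, plastid chaperonins and plastid RNA polymerase were drawn up after the passing genes had been seen. Their medians and points describe those genes, and nothing is read from their place beside the other lists.

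Across 49 lists, 27 of 605 tested loci were higher and 12 lower, beside 1.27% and 1.29% over all genes tested. The lists were chosen with earlier results of these data known, so nothing is read from this comparison. The higher loci include PROAtCAPE1, whose value is not read as a salt response of proatcape1. A passing member was found in 22 lists and none in 27. Among these 27 lists were some at the centre of the salt response. They had 0 of 20 dehydrins, LEA proteins and other dehydration-responsive genes (median 0.07) and 0 of 8 clade A phosphatases that restrain ABA signalling (0.26). The others had 0 of 14 heat shock genes (0.24), 0 of 6 CBF and DREB2 factors of cold and drought (0.45) and 0 of 13 genes of proline and raffinose-family osmolytes (0.10). The LEA-type SAG21, which passed, was listed with the senescence genes. The median salt effect of the dehydrins, LEA proteins and other dehydration-responsive genes was 3.78 in the wild type and 3.56 in proatcape1. Jasmonate genes had a median of 0.01 with 0 of 20 passing, and JAZ8, a repressor of jasmonate signalling, had an interaction of -1.68 that did not pass (adjusted p = 0.0654) but passed with the slide as a block (adjusted p = 0.0360). Iron deficiency genes (0.50) and phosphate starvation genes (0.37) had positive medians with 0 of 10 and 0 of 11 passing.

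Some passing genes had a group in which the probe was not well above background, 11 of the higher and 3 of the lower genes, and their interaction depends on a dim signal. AT1G13310 had the largest value of all (4.71, SE 0.38, adjusted p = 0.000545). Its proatcape1 control was not well above background, and its salt level in proatcape1 was at least 6.88-fold higher. AT1G30190 (3.53, SE 0.48, adjusted p = 0.00784) was also dim in the proatcape1 control and at least 16.9-fold higher under salt there. In the lower direction AT4G22214 (-2.48, SE 0.66, adjusted p = 0.0472) was dim in proatcape1 under salt and at least 8.14-fold higher in its control. MPC (-1.72, SE 0.36) was dim under salt in both genotypes, and NHL25 (-1.30, SE 0.33), a protein of the NDR1/HIN1-like family, was dim in both controls and at least 41.8-fold higher under salt in the wild type and at least 21.7-fold higher in proatcape1.

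The summed levels of root and shoot markers moved with the groups. The 9 root markers, all read above background, summed to 113 to 124 times the 75th percentile signal in the wild-type control and to 118 to 130 times in the proatcape1 control. Under salt they summed to 79.5 to 91.7 times in the wild type and to 103 to 108 times in proatcape1, without overlap. The sum was carried by PYK10, and the other 8 root markers summed under salt to 2.53 to 3.05 times in the wild type and to 2.53 to 2.74 times in proatcape1, which overlapped. Of the 9 root markers 8 had a negative interaction, and the list median was -0.11, with a median genotype difference under salt of -0.15. The 6 shoot markers summed to 504 to 539 times in the wild-type control and 523 to 574 times in the proatcape1 control, which overlapped. They summed to 531 to 540 times in the wild type and 589 to 626 times in proatcape1 under salt, again without overlap. Of the root markers, 0 had a higher interaction and PLT1, a root meristem factor, had a lower one (-0.65, SE 0.18, adjusted p = 0.0499), which did not pass with the mean of all probes of a locus (adjusted p = 0.0510). In whole seedlings fewer cells of a type and less RNA per cell cannot be told apart, and the part of these marker levels in the interactions was not tested.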

How the data were processed

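RNA of whole seedlings was hybridised by the authors to single colour Agilent Arabidopsis (V4) arrays, and the deposited scanner files hold spot intensity as processed signal, already background-subtracted and detrended by Agilent Feature Extraction, with no scaling between arrays. The deposited table of the authors' log2 values was made in GeneSpring from the same signals, relative to the 75th percentile and to a baseline for each probe that is close to the wild-type control. It served as an alternative, and its array medians ran from -0.17 to 0.04.

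Of 43603 probes, 76 were left out for outlier flags, 34306 were matched to 25405 loci and 9221 to none. The log2 processed signal minus each array's 75th percentile was used without a floor. Probes were kept with a signal over 100 and a coefficient of variation under 50% on all 3 arrays of at least 1 group, as in the study's methods, and the brightest probe stood for a locus. A fit of 4 group means over 12 arrays with limma 3.58.1 in R 4.3.3 gave every contrast, and p-values were adjusted by Benjamini-Hochberg over the 19027 genes tested. No block was used. Replicates were biological repeats per the labels and methods.

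Named were the 15 largest higher and 15 largest lower passing genes with a symbol that were read in every group, all genes of opposite called direction, the study's qRT-PCR genes, PROAtCAPE1, up to 3 passing and 2 other members of each list, and up to 3 dim passing genes per direction. Members of the 5 lists drawn up later, and FLOT1, RVE8, RVE1 and CYCA1;1, fall outside this rule. The genes and lists were chosen with earlier results of these data known. Alternatives were another background correction, scaling, dim-probe filter, probe summary, variance model, array weights, a replicate block, the authors' values, other limits and each array left out.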

Additional observations from a re-analysis of the deposited data

Results flagged for a closer look

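In 5 genes the salt effect passed in both genotypes with opposite signs and the interaction, which tests this difference, passed as well. The interaction was 3.42 for PBS3, 2.86 for AT1G44130, 2.57 for AT3G48640, 2.46 for AT5G25260 and 1.72 for AT2G20142. Each fell in the wild type and rose in proatcape1. The limma adjusted p-values of these interactions ran from 0.000545 to 0.0159.

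Probes that could not be matched to a locus are in no gene count above. Of 2988 such probes tested, 64 passed the interaction (2.14%), 41 higher and 23 lower, beside 2.36% of the probes with a locus.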

How the results depend on the processing

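All 67 passing named genes kept their sign under every alternative, and 7 of them kept the call under each one. Of the 103 named genes that did not pass, 65 passed under none. No other scaling moved the median interaction of all genes by over 0.1. With normexp 142 genes were lower, and with median scaling 9.77% of the passing genes had the same sign and a smaller effect in proatcape1 and 12.2% of the lower genes had the larger genotype difference in control. With probes well above background on every array 9.5% of the lower genes had the larger difference in control. Without a filter 112 genes were higher, 133 lower, 5.31% smaller, 15 list members higher and 4 lower, and 21 probes without a locus passed. Array weights gave 425 higher genes, 9 genes of opposite direction, 78.6% with the same sign and a larger effect, 17.0% of lower genes with the larger difference in control and 57 list members higher.

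The file headers give each slide 1 array of every group and the replicate number was the slide, so the slide block was the replicate block and was not run apart. With the replicate block 501 genes passed, 249 of them higher, 439 shared with the 487, and 12.3% of the lower genes had the larger difference in control. Arrays of the same number had correlated deviations from -0.20 to 0.37 and 11 of 12 arrays correlated best with their own number. Slides 1 and 2 alone, chosen after seeing the data, gave 16 higher and 3 lower genes, 2 of opposite direction, 73.7% larger, 5.26% smaller, 21.1% opposite in sign, 87.5% of higher and 100.0% of lower genes with the larger difference in control, 3 list members higher and 1 lower, and 2 probes without a locus.

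A 2-fold limit gave 109 higher and 18 lower genes, 2 of opposite direction, 73.2% larger, 17.3% opposite in sign, 74.3% of higher and 50% of lower genes with the larger difference in control, 14 list members higher and 3 lower, and 21 probes. No fold limit gave 535 higher, 926 lower, 28 of opposite direction, 42.4% of higher genes with the larger difference in control, 22 list members lower and 151 probes. Unadjusted p-values gave 515 higher, 76.0% larger, 13.6% smaller, 17.1% of lower genes with the larger difference in control, 67 list members higher and 108 probes.

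Leaving out 1 array gave 112 to 398 higher genes, 96 to 413 lower, 4 to 8 of opposite direction, 78.9 to 84.9% larger, 5.26 to 9.83% smaller and 9.38 to 13.4% opposite in sign. It gave 43.5 to 75.9% of higher and 5.57 to 18.4% of lower genes with the larger difference in control, 13 to 42 list members higher, 2 to 17 lower and 25 to 97 probes. The cause of these changes was not tested. Signal near background limits 14 passing genes with a group not well above it.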
